A study of Mus musculus with 10 samples.

Results

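The apical face of a mature colonocyte carries a brush border of closely packed microvilli, and 10 genes that build or occupy that surface were followed here: Vil1, Myo1a, Cdhr2, Cdhr5, Ush1c, Mep1a, Mep1b, Alpi, Ceacam20 and Lypd8. They were taken by gene symbol from a table of 24525 genes, all 10 were in the table, and all 10 were among the 13016 genes whose mean reached 1 FPKM and that were tested. FPKM is the number of sequenced fragments scaled to the length of the transcript and to the mapped fragments of the library, so levels can be compared between genes. The choice of the 10 did not use the values, but it was made with earlier results of these data known.

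The libraries came from polyadenylated RNA of 5 colorectal tumours and 5 samples of adjacent colon from male mice, labelled C57BL/6 and described in the growth protocol as C57BL/6N. Every mouse that gave tissue to either group had been treated with azoxymethane (AOM), a mutagen, in 1 injection of 12.5 mg/kg, and with 3 rounds of DSS, dextran sulfate sodium, an agent that wounds the lining of the colon, at 2% in drinking water for 5 days followed by 16 days of water. The mice entered the study at 7 weeks of age, and tissue was taken 10 weeks after AOM. Adjacent tissue was therefore exposed to both agents as well, and no library from the 3 untreated mice was used here. The titles number each group 1 to 5, while all 10 libraries carry the name of a single mouse in their source label, so it is not settled which libraries share an animal, and p-values measure the spread between these samples only.

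Microvilli are held up by bundles of actin filaments, which villin cross-links and which brush border myosin I ties to the membrane. At their tips, the cadherins Cdhr2 and Cdhr5 of neighbouring microvilli bind each other, and inside the cell the scaffold harmonin, the product of Ush1c, joins the cadherin tails to the motor Myo7b and the adaptor Anks4b. The membrane between these links carries digestive and protective proteins: the meprin metalloproteases, intestinal alkaline phosphatase, the adhesion receptor Ceacam20, and Lypd8, a lipid-anchored protein that in mouse is shed into the colonic lumen and binds flagellated bacteria.

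The promoters of the 4 genes below are shown for CAAAGT, the core of a site bound by HNF4A, a nuclear receptor of enterocytes whose own values are given further on. The stretches are the 100 bases before the RefSeq start in GRCm38.p6, written 5′ to 3′ on the strand of the gene, with CAAAGT, or CAAAGTCCA where the match is longer, in capitals. The 4 lie at chr1:87101607-87101706 on the minus strand (Alpi), chr13:54701363-54701462 (Cdhr2), chr7:19965312-19965411 (Ceacam20) and chr11:58378932-58379031 (Lypd8), the last 3 on the plus strand.
Alpi: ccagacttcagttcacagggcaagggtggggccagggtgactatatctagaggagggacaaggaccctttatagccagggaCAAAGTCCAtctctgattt
Cdhr2: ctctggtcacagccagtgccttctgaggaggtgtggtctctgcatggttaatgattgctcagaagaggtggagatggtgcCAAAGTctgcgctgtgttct
Ceacam20: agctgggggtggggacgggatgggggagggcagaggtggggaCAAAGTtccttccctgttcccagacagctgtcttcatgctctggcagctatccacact
Lypd8: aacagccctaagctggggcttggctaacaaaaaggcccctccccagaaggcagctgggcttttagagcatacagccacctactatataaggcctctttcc

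RefSeq gave 10 promoters for 9 of the genes, 2 of them for Lypd8. On either strand, CAAAGT was found in 4 of the 10 within 250 bases before the start, in Alpi, Cdhr2, Ceacam20 and Mep1a, and each match lay on the strand of the gene within the last 100 bases, beginning 19, 20, 58 and 29 bases before the start. Among all 32851 promoters, 12.6% held it in 250 bases and 4.46% in the last 100 bases. The longer CAAAGTCCA was in the Alpi promoter and in 0.384% of all promoters. GTTAAT, a core of the HNF1 site, was in 2 of the 10 and in 6.43% of all, and TTTAT, the core of the CDX site, was in 3 of the 10 and in 37.3% of all. The Lypd8 stretch of 100 bases, shown as that of the most abundant gene, held none of these 4 motifs. Farther out, GTTAAT was found for Lypd8, beginning 185 bases before the start, and this match is among the 2 counted above. The motifs were chosen after these sequences had been seen, and a match is a description of letters, not of binding.

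All 10 genes fell in tumours, and in all 10 the highest tumour lay below the lowest adjacent sample. Of the 13016 genes tested with limma on log2(FPKM + 1), 19.3% fell at an adjusted p of 0.05, and 14.3% had all tumours below all adjacent samples. The median log2 change of the 10 was -2.79, against 0.35 for all tested genes. The smallest fall was that of Vil1, by 1.02 on the log2 scale, and the largest that of Mep1a, by 4.30. All 10 fell by at least 1, as 7.09% of tested genes did, and 7 fell by at least 2, which 2.20% did. Alpi passed the expression filter only through its adjacent samples, so its call says less than those of the other 9.

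**Figure D1:**
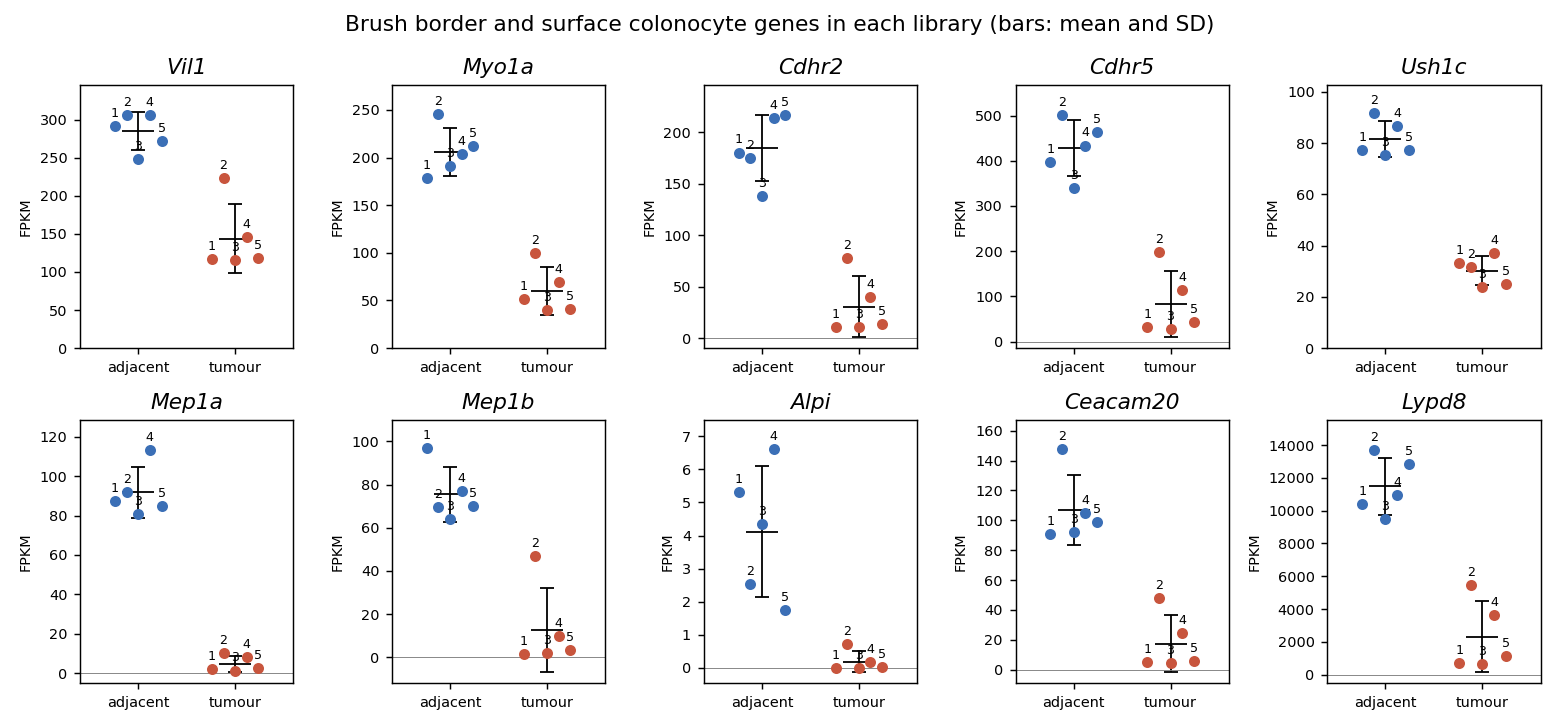
FPKM of each of the 10 genes (vertical axes, linear, each with its own range) in the 5 adjacent (blue) and 5 tumour (red) libraries, numbered as in the titles, with the mean and SD of each group. No tumour reaches the lowest adjacent sample in any panel, and tumour 2 is the highest tumour for 9 of the 10 genes.

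The whole table moved between the groups. Per library, 462009 to 484712 FPKM were given in total, and depth, estimated roughly from the steps between low values, was 20500000 to 26800000 fragments. The 0.35 by which the median tested gene was raised in tumours is a log2 difference, and more genes rose (57.2%) than fell; 76.5% changed in either direction, and 46.5% had all tumours above all adjacent samples. With library medians subtracted, 33.3% fell, the 10 genes among them, and 34.5% rose. Lists of other cells moved too: the mean log2(FPKM + 1) of 7 fibroblast genes was 3.02 to 4.20 in adjacent samples and 5.58 to 6.33 in tumours, that of 7 leukocyte genes 1.70 to 2.84 and 2.49 to 3.38, and that of 11 general epithelial genes 8.27 to 8.47 and 7.74 to 8.09. The leukocyte genes did not all move the same way. Of 6 tested, 4 rose (Ptprc, Cd68, Itgam and Csf1r), 1 fell (Cd79a) and 1 did not pass (Cd3e). The log2 change of Cd79a was -1.25 (SE 0.48, limma adjusted p = 0.0357). This call was lost in fits that left out adjacent sample 1, 2 or 3, or tumour 1, 3, 4 or 5. It was also lost with 5 added to FPKM in place of 1 (limma adjusted p = 0.0548). With the mean of the general epithelial genes subtracted, it did not pass either (limma adjusted p = 0.147). In bulk tissue, fewer colonocytes and less RNA per colonocyte cannot be told apart, for any of the results below. With the mean of the general epithelial genes subtracted from each library, all 10 genes still fell, by 0.56 (Vil1) to 3.83 (Mep1a) on the log2 scale, with limma adjusted p of 0.00319 or lower, while 8.94% of all genes fell and 77.1% rose in that fit, the background for every count from it below.

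**Figure D2:**
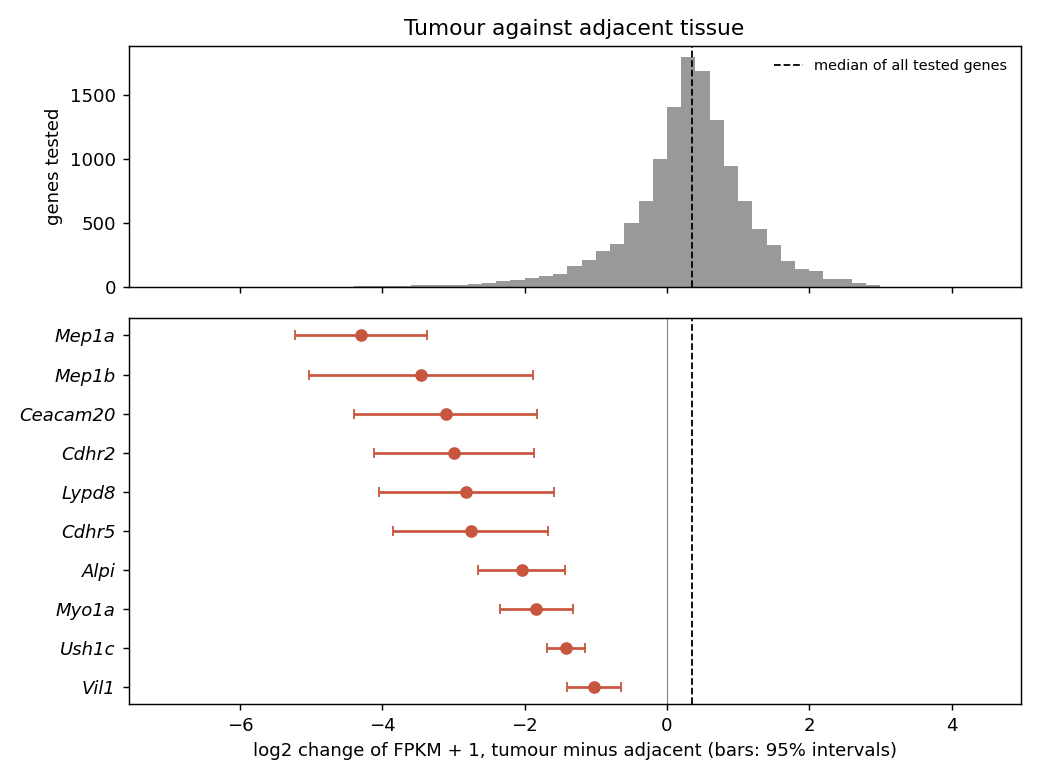
Upper panel, the number of tested genes (vertical axis) by log2 change of FPKM + 1, tumour minus adjacent (horizontal axis). Lower panel, the change of the 10 genes with 95% intervals. All 10 intervals lie below 0 and below the median of all tested genes, 0.35 (dashed line).

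Of the 10 genes, Vil1 (chromosome 1, 74409376 to 74435559, GRCm38), which encodes the actin bundler villin, changed least. It was at 291, 306, 249, 305 and 272 FPKM in adjacent samples 1 to 5 and at 117, 223, 116, 146 and 118 FPKM in tumours 1 to 5. Tumours 1, 3 and 5 lay close together, while tumour 2 came close to adjacent sample 3. The log2 change was -1.02 (SE 0.17, limma adjusted p = 0.000284). Part of an exon of Usp37, on the opposite strand, overlaps Vil1, and the kit does not mark strand; Usp37 was at 6.35 ± 0.28 and 7.30 ± 0.51 FPKM (SD, n = 5 per group), far below Vil1.

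Myo1a (chromosome 10, 127705170 to 127720940), brush border myosin I, was at 178, 245, 191, 203 and 212 FPKM in adjacent samples and at 51.5, 100.01, 39.8, 69.5 and 40.9 FPKM in tumours. Its adjacent samples ranged 1.37-fold and its tumours 2.52-fold, with tumours 2 and 4 on top. It fell by 1.84 on the log2 scale (SE 0.23, limma adjusted p = 6.13e-05). As a share of the Vil1 level, Myo1a was 61.3% to 80.1% in adjacent samples and 34.3% to 47.7% in tumours. This log2 ratio was lower in tumours by 0.81 and did not overlap between groups (two-sided exact permutation p = 0.00794, the smallest that 5 against 5 samples allow; adjusted p = 0.0317 over 4 ratios). Leaving out any of adjacent samples 3, 4 and 5 or tumours 3, 4 and 5 took the adjusted p of this and the other called ratios above 0.05.

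The adhesion cadherins fell together. Cdhr2 (chromosome 13, 54701461 to 54736662), also called protocadherin 24, was at 181, 175, 138, 214 and 217 FPKM in adjacent samples and at 10.5, 78.4, 10.7, 40.3 and 13.6 FPKM in tumours. Cdhr5 (chromosome 7, 141269083 to 141276786), the mucin-like protocadherin, was at 398, 501, 340, 434 and 464 FPKM in adjacent samples and at 31.4, 197, 28.3, 114 and 43.5 FPKM in tumours. For both, tumour 2 kept the most and tumour 4 came next, at 42.4% and 21.8% of the adjacent mean for Cdhr2 and 46.2% and 26.8% for Cdhr5, while the other 3 tumours were at 5.66% to 10.2%. The log2 changes were -3.00 (SE 0.51, limma adjusted p = 0.000363) and -2.76 (SE 0.49, limma adjusted p = 0.000479).

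The Cdhr2 level was 34.9% to 49.3% of the Cdhr5 level in adjacent samples and 31.2% to 39.7% in tumours. The difference in their log2 ratio, -0.24, did not pass (two-sided exact permutation p = 0.0714, adjusted p = 0.0714 over 4 ratios); without adjacent sample 2 it was -0.31 and passed (adjusted p = 0.0317). Of all pairs among the 10 genes, Cdhr5 and Lypd8 had the most similar profiles over the 10 libraries, with a root mean square distance of 0.14 on the centred log2 scale. Cdhr2 and Cdhr5 came next, at 0.19, and Vil1 and Mep1a were farthest apart, at 1.70.

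Ush1c (chromosome 7, 46195350 to 46238503), the scaffold harmonin, whose human gene is mutated in a form of Usher syndrome, fell less than Cdhr2, whose tail it binds. It was at 77.1, 91.7, 75.5, 86.7 and 77.2 FPKM in adjacent samples and at 33.3, 31.5, 23.8, 37.1 and 25.0 FPKM in tumours. It is the only gene of the 10 in which tumour 2 was not the highest: tumours 4 and 1 lay above it, and the tumours ranged only 1.56-fold. The log2 change was -1.42 (SE 0.12, limma adjusted p = 1.52e-05). Gm9860, on the opposite strand, overlaps exons of Ush1c, and the level of Gm9860 is not given here. The Ush1c level was 35.6% to 54.6% of the Cdhr2 level in adjacent samples. In tumours 1 to 5 it was 318%, 40.2%, 223%, 92.1% and 184%, so tumour 2 alone stayed within the adjacent range. The log2 ratio was higher in tumours by 1.58 (two-sided exact permutation p = 0.0317, adjusted p = 0.0423 over 4 ratios). Without tumours 2 and 4 the difference was 2.32, and without tumour 1 it was 1.28, with adjusted p = 0.0847; leaving out adjacent sample 1 also took this ratio past 0.05, at 0.0635.

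Of the 3 other named parts of this complex, 2 fell and 1 did not pass. Anks4b, the adaptor that binds harmonin, fell in tumours, to 16.4 ± 5.85 FPKM from 61.1 ± 8.34 in adjacent samples (SD, n = 5 each), with limma's log2 change at -1.90 (SE 0.21, adjusted p = 3.29e-05). Calml4, a light chain of the motor, fell to 45.2 ± 10.7 FPKM from 121 ± 9.45, with limma's log2 change at -1.43 (SE 0.15, adjusted p = 2.52e-05). The motor Myo7b was at 45.2, 44.9, 36.9, 50.6 and 46.4 FPKM in adjacent samples and at 46.9, 35.7, 38.2, 37.5 and 39.8 FPKM in tumours. These groups overlap, and the log2 change of -0.17 (SE 0.10) did not pass (limma adjusted p = 0.123); with library medians subtracted Myo7b passed as lower, and with the general epithelial mean subtracted it passed as higher. Whether Myo7b and the other parts differ in their change was not tested.

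**Figure D3:**
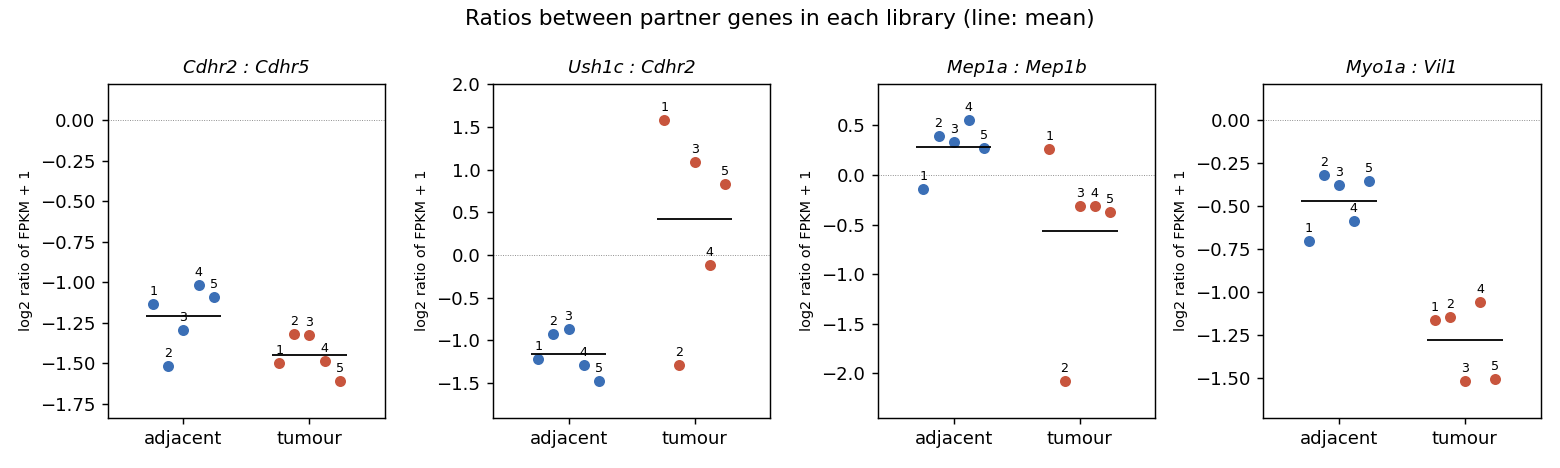
Log2 ratio of FPKM + 1 between 4 pairs of partner genes (vertical axes) in each adjacent (blue) and tumour (red) library, with the group mean as a line. Myo1a against Vil1 separates the groups, Ush1c against Cdhr2 is raised in every tumour but tumour 2, which lies at -1.29, and Mep1a against Mep1b is lowest in tumour 2, at -2.08.

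Of 11 further genes of the microvillus core and its membrane links, 8 fell and 3 did not pass, with a median log2 change of -0.82. The actin bundlers Espn and Pls1 fell by 2.02 (SE 0.26) and 1.58 (SE 0.32) on the log2 scale, and Baiap2l1, which helps microvilli to elongate, fell by 1.64 (SE 0.23), each with a limma adjusted p of 0.00115 or lower. Ezr, ezrin, which ties actin to the membrane, fell in tumours, to 161 ± 21.5 FPKM from 286 ± 57.3 in adjacent samples (SD, n = 5 each). Baiap2l2, of the same family as Baiap2l1, did not pass, at 37.7 ± 4.73 and 49.9 ± 17.4 FPKM, nor did Cobl, an actin nucleator, at 14.9 ± 4.56 and 16.6 ± 5.15 FPKM, or the scaffold Pdzk1. With the general epithelial mean subtracted, 7 of the 11 fell and 3 rose, where 77.1% of all genes rose. Of 5 genes that carry cargo to the apical membrane, 2 fell and 3 did not pass. The 3 were Stxbp2, Rab8a and Rab11a, with log2 changes of -0.08, -0.14 and -0.17. With library medians subtracted all 5 fell, where 33.3% of all genes fell. With the general epithelial mean subtracted none fell and 3 rose. Myo5b, a motor whose human gene is mutated in microvillus inclusion disease, fell by 0.65 (SE 0.12, limma adjusted p = 0.000425). Stx3, a syntaxin of the apical membrane, fell by 0.24 (SE 0.09, limma adjusted p = 0.0318), a call lost in 6 of the 10 fits that left out 1 library (adjusted p from 0.0557 to 0.0778). With the general epithelial mean subtracted, neither passed (adjusted p = 0.0824 for Myo5b and 0.0548 for Stx3), and the log2 change of Stx3 was 0.22.

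The meprins are zinc metalloproteases of the brush border, of which the alpha subunit is secreted unless bound to the beta subunit, which spans the membrane. Mep1a (chromosome 17, 43474324 to 43502812) was at 87.3, 92.2, 80.8, 114 and 84.9 FPKM in adjacent samples and at 1.88, 10.3, 1.29, 7.93 and 2.36 FPKM in tumours. The lowest adjacent sample was 7.83-fold above the highest tumour, the widest gap of the 10 genes. Its log2 change of -4.30 (SE 0.42, 95% interval -5.22 to -3.37, limma adjusted p = 2.26e-05) was the 21st lowest of all genes tested.

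Mep1b was at 96.8, 69.8, 63.8, 77.1 and 70.3 FPKM in adjacent samples and at 1.41, 46.8, 1.84, 10.1 and 3.34 FPKM in tumours. Tumour 2 kept 61.9% of the adjacent mean, tumour 4 13.3%, and the other 3 tumours 1.87% to 4.42%, a 33.2-fold range among tumours that was wider than for any other of the 9 genes with no tumour at 0. The log2 change was -3.46 (SE 0.71, limma adjusted p = 0.00122), and it was -4.15 without tumour 2. Mep1a stood at 90.2% to 147% of the Mep1b level in adjacent samples and at 133%, 22.1%, 70.1%, 78.7% and 70.7% in tumours 1 to 5. The log2 ratio was lower in tumours by 0.84 (two-sided exact permutation p = 0.0159, adjusted p = 0.0317 over 4 ratios), with overlapping groups. The difference was 0.46 without tumour 2, still past the threshold.

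Alpi (chromosome 1, 87098002 to 87101606), intestinal alkaline phosphatase, which removes phosphate from bacterial lipopolysaccharide, was the least abundant of the 10. It was at 5.33, 2.54, 4.35, 6.61 and 1.76 FPKM in adjacent samples and at 0.72, 0.19 and 0.04 FPKM in tumours 2, 4 and 5, and it was listed at 0 in tumours 1 and 3. By the rough depth, the tumour values stand for 36, 9 and 2 fragments, against 102 to 360 in adjacent samples. Its adjacent samples varied more than those of any other of the 10, 3.76-fold. The log2 change was -2.04 (SE 0.28, limma adjusted p = 8.48e-05), a scale that understates the change of so low a gene; with pseudocounts of 0.1 and 5 it was -4.24 and -0.79. Akp3, a related alkaline phosphatase known from the mouse duodenum, went the other way below the filter, from 0.13 to 0.22 FPKM in adjacent samples to 0.56 to 1.39 FPKM in tumours, and the sources used here do not give how fragments were shared among these related genes.

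Of 15 other brush border hydrolases, 7 passed the filter, of which 4 fell, 1 rose and 2 did not pass. Naaladl1, a peptidase, fell by 2.03 (SE 0.18, limma adjusted p = 1.68e-05), although it passed the filter only through its adjacent samples, and Mgam, maltase-glucoamylase, fell in tumours, to 39.6 ± 6.65 FPKM from 65.2 ± 4.14 in adjacent samples (SD, n = 5 each). Anpep, aminopeptidase N, which stromal and myeloid cells also express, rose by 1.28 (SE 0.21, limma adjusted p = 0.000243), at 1.99 to 4.43 FPKM in adjacent samples and 6.53 to 12.2 FPKM in tumours, alongside the rise of the fibroblast list; its part in this was not tested. Sis and Lct, the disaccharidases of small intestine, were at most 0.05 and 0.12 FPKM in any library. With the general epithelial mean subtracted, 2 of the 7 fell and 2 rose.

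Ceacam20 (chromosome 7, 19965412 to 19991104), a membrane protein of microvilli, was at 90.5, 148, 92.1, 105 and 98.8 FPKM in adjacent samples and at 5.26, 47.7, 4.32, 24.3 and 5.75 FPKM in tumours. The high values were adjacent sample 2 and tumour 2, each the top of its group. It fell by 3.11 on the log2 scale (SE 0.58, limma adjusted p = 0.000642). Ptprh, the receptor phosphatase that in mouse acts on Ceacam20, was likewise highest in adjacent sample 2 and in tumours 2 and 4: 73.8, 110, 66.1, 77.9 and 59.2 FPKM in adjacent samples and 4.64, 45.9, 4.39, 17.8 and 4.38 FPKM in tumours, with limma's log2 change at -2.83 (SE 0.58, adjusted p = 0.00115). In the list of Ptprh and 7 other genes of the Ceacam family, 5 passed the filter, 4 fell and 1 did not pass. One of the 4, Ceacam18, at 6.02 ± 1.85 and 0.74 ± 0.60 FPKM, passed the filter only through its adjacent samples. Ceacam1, the most abundant, fell in tumours, to 476 ± 394 FPKM from 1643 ± 211 in adjacent samples (SD, n = 5 each), and Ceacam2 did not pass, at 3.33 ± 0.56 and 7.96 ± 7.89 FPKM.

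Lypd8 (chromosome 11, 58379043 to 58390728) had the highest FPKM of any gene in each of the 5 adjacent libraries. It was at 10430.9, 13719.6, 9490.5, 10975.9 and 12817.2 FPKM there, which is 1.97% to 2.89% of all FPKM of a library. In tumours 1 to 5 it was at 720.2, 5491, 666, 3610.1 and 1137 FPKM, or 0.156%, 1.17%, 0.144%, 0.755% and 0.240% of the total. It remained the highest gene in tumour 2 and the second highest in tumour 4, and it ranked 81, 90 and 39 in tumours 1, 3 and 5, while Eef1a1, a translation factor, was the highest in the 4 tumours other than tumour 2. The log2 change was -2.82 (SE 0.56, limma adjusted p = 0.000956).

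Together the 10 genes held 2.22% to 3.23% of all FPKM in adjacent samples and 0.192% to 1.33% in tumours. Without Lypd8 in the sum or the total, a reckoning chosen after seeing the data, the other 9 held 0.261% to 0.354% and 0.0488% to 0.159%. Of 10 related genes of the Lypd family, 7 were in the table, and Lypd6b alone passed the filter, at 3.22 ± 0.42 and 2.73 ± 0.60 FPKM (SD, n = 5 per group; log2 change -0.19, SE 0.13, limma adjusted p = 0.202, and past the threshold as lower with library medians subtracted). Lypd6, below the filter, was at 0.02 to 0.30 FPKM in adjacent samples and 0.37 to 1.83 FPKM in tumours.

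Relative to the group mean, tumours differed more from each other than adjacent samples did. In FPKM, the SD was larger in tumours for some genes, such as Vil1 (45.8 against 24.6). It was smaller in tumours for others, such as Mep1a (4.09 against 12.8). The coefficient of variation of FPKM among adjacent samples was 8.65% to 22.0% for the 9 genes other than Alpi, and among tumours it was 18.7% (Ush1c) to 153% (Mep1b) for the same 9. Tumour 2 was the highest for 9 of the 10 genes, tumours 2 and 4 were the top pair for those same 9, and tumour 3 was the lowest for 8, tied with tumour 1 at 0 for Alpi. Expressed as a share of the adjacent mean, tumour 2 kept 78.2% of Vil1, 61.9% of Mep1b and 47.8% of Lypd8 but only 11.2% of Mep1a. Tumour 3 kept 40.7% of Vil1, 29.2% of Ush1c and 19.3% of Myo1a, and 6.61% or less of the other 7.

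**Figure D4:**
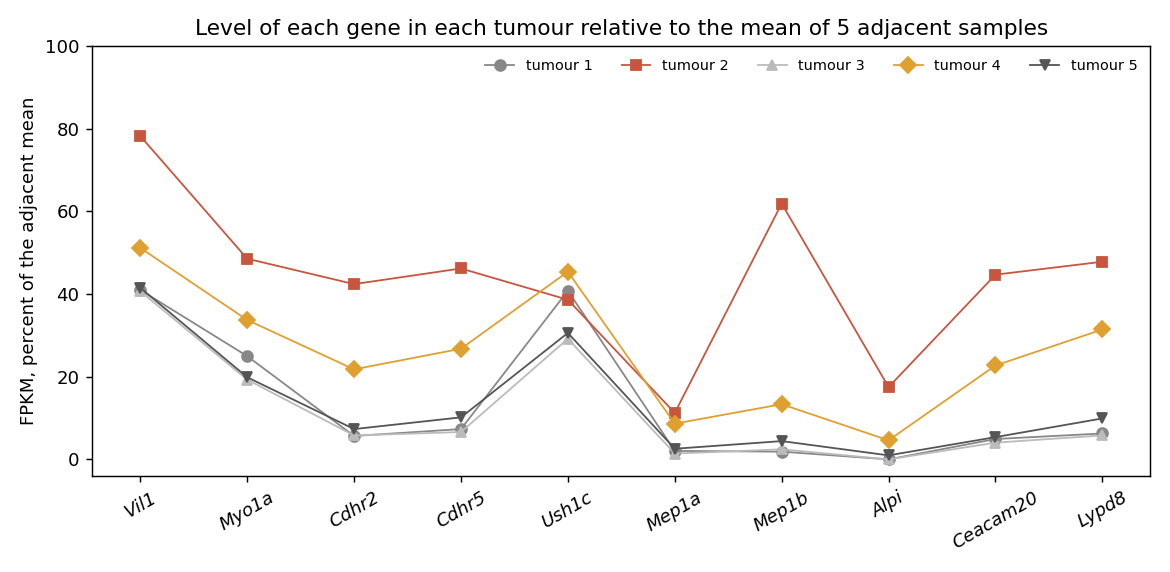
FPKM of each gene in each of the 5 tumours as a percent of the mean of the 5 adjacent samples (vertical axis, linear); lines join values of the same tumour to guide the eye. Tumours 1, 3 and 5 lie close together at 10.2% or less for the 7 genes other than Vil1, Myo1a and Ush1c, and tumour 2 stands above the others for every gene but Ush1c.

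Values of other lists moved with this order of tumours. The mean log2(FPKM + 1) of 13 surface colonocyte genes was 5.01 in tumour 2 and 4.71 in tumour 4, with 2.86 to 3.17 in tumours 1, 3 and 5 and 6.72 to 7.34 across adjacent tissue. For 6 goblet cell genes it was 7.77 and 8.01, with 5.78 to 6.31 in tumours 1, 3 and 5 and 10.0 to 10.5 across adjacent tissue. Tumour 2 also had the highest fibroblast and leukocyte means of all libraries, 6.33 and 3.38, and the lowest mean of 6 stem and cycling cell genes among tumours, 4.90 against 5.47 to 5.76. The part of admixed adjacent epithelium or of other cells in the tumour 2 values was not tested. Without tumours 2 and 4, the log2 changes of the 10 genes ran from -1.27 (Vil1) to -5.03 (Mep1a), with a median of -3.70. These tumours were left out because they lay nearest to adjacent tissue, and they are the top pair for 9 of the 10 genes, so larger falls follow from the choice.

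**Figure D5:**
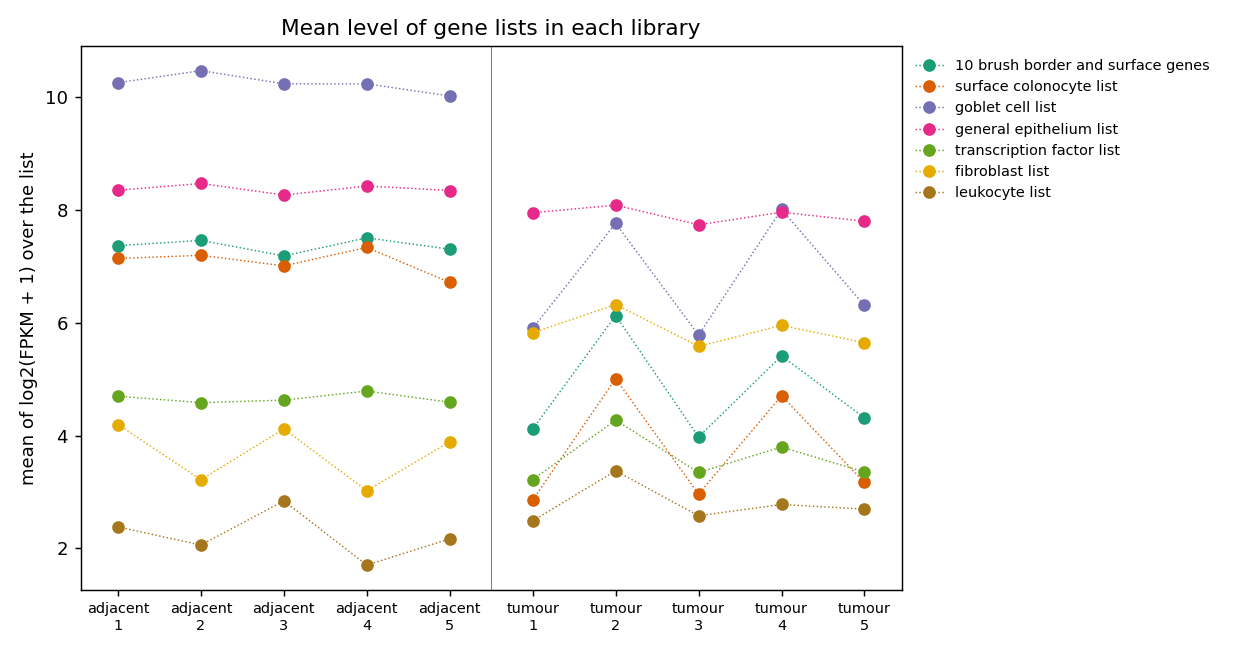
Mean of log2(FPKM + 1) over each gene list (vertical axis) in each of the 10 libraries (horizontal axis); dotted lines join libraries of a group to guide the eye. Every list shown, not only the 10 brush border and surface genes, is higher in tumours 2 and 4 than in the other 3 tumours. The general epithelium list stays between 7.74 and 8.09 in all 5, with tumour 4 at 7.964 close to tumour 1 at 7.955.

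Of 14 transcription factors of enterocytes, 13 were tested, of which 10 fell, 2 rose and 1 did not pass, with a median log2 change of -1.35; with library medians subtracted 11 fell and none rose, and with the general epithelial mean subtracted 7 fell and 3 rose. Hnf4a was at 219, 236, 209, 259 and 213 FPKM in adjacent samples and at 87.2, 138, 71.4, 101 and 80.0 FPKM in tumours, with limma's log2 change at -1.27 (SE 0.16, adjusted p = 4.94e-05), again highest in tumours 2 and 4. Cdx2, a homeobox factor of intestinal identity, fell by 3.06 (SE 0.75, limma adjusted p = 0.00367) and Klf4, a factor of differentiated cells, fell by 2.94 (SE 0.33, limma adjusted p = 3.93e-05), the largest falls of the list. Cdx2 in tumour 2, at 59.0 FPKM, lay above adjacent sample 5, at 27.0 FPKM, while the other 4 tumours were at 2.03 to 7.59 FPKM. Prdm1 and Maf, which immune cells also express, rose by 0.88 (SE 0.28, limma adjusted p = 0.0159) and 0.71 (SE 0.19, limma adjusted p = 0.00514), and neither passed with library medians subtracted (adjusted p = 0.117 and 0.0903) or with quantile normalization (adjusted p = 0.228 and 0.320).

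Among general epithelial genes, Epcam fell in tumours, to 776 ± 42.6 FPKM from 964 ± 78.9 in adjacent samples (SD, n = 5 each), with limma's log2 change at -0.31 (SE 0.07, adjusted p = 0.00257), far less than any of the 10 genes. The list of 11 such genes had 9 that fell, 2 that rose and a median change of -0.50. Krt8 and Krt19, keratins of simple epithelium, fell most, by 1.07 (SE 0.20) and 0.81 (SE 0.13). The fall of Krt8 was no smaller than that of Vil1, at 1.02 (SE 0.17). Krt18 and Esrp2 rose by 0.36 (SE 0.10) and 0.30 (SE 0.11), and with library medians subtracted neither passed. Of 12 surface colonocyte genes tested 10 fell, led by Car4, a carbonic anhydrase, and the water channel Aqp8. Their log2 changes were -6.52 (SE 0.53) and -6.48 (SE 0.49), larger falls than any of the 10 brush border and surface genes. The 2 that did not pass were Slc9a3, at 78.8 ± 30.6 and 74.1 ± 35.6 FPKM in adjacent samples and tumours, and Clca4b, at 235 ± 78.1 and 206 ± 304 FPKM (SD, n = 5 each).

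The genes outside all lists whose profile over the 10 libraries was nearest to the mean profile of the 10 were Tspan1, a tetraspanin, then Cutal, Iqgap2, Cnnm4 and St6galnac6, at root mean square distances of 0.077 to 0.164 on the centred log2 scale. Tspan1 fell from a mean of 962 to 204 FPKM, a log2 change of -2.48. The nearest gene was Zzef1 for Vil1 (0.072), Cyp4f14 for Mep1a (0.159), Fa2h for Mep1b (0.20), Adgrg7 for both Cdhr2 (0.193) and Cdhr5 (0.140), and Cideb for both Ceacam20 (0.170) and Lypd8 (0.151). For Myo1a it was Cracr2a (0.126), for Ush1c Ccdc32 (0.109) and for Alpi Cftr (0.245). The distance measures likeness over these libraries, most of which is the difference between the groups.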

How the data were processed

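The deposited table gives 1 FPKM value per gene symbol and library, computed by the authors. Tools named in the submitters' processing notes include Salmon 0.8.2, RSEM 1.2.15, TopHat2 2.1.0 and Cufflinks 2.2.1, with the build mm10, and the sources used here do not give which of them made the table. Per the labels' protocols, RNA was selected with oligo-dT, and it was sequenced after TruSeq RNA v2 preparation, which does not mark strand. One line without values was left out. FPKM depends on what other genes take of a library.

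Values of log2(FPKM + 1) were modelled in limma 3.58.1 (R 4.3.3) for genes whose mean reached 1 FPKM; the model held the group alone, with trend and robust empirical Bayes. p-values are two-sided and adjusted after Benjamini-Hochberg over all 13016 genes, with a threshold of 0.05. The fit was also run on simulated data with independent noise for each gene and few or no changed genes. In the data 76.5% of genes changed, so that run cannot speak for these settings, and nothing is concluded from it. The 4 ratios were tested by exact permutation (scipy 1.17.1). Beyond the 10 genes, the text names, for some lists, up to 2 genes that rose most and 2 that fell most. Where none passed, these are the 2 of highest mean. The nearest genes by profile are named too, and others chosen after their values were seen. Goblet, fibroblast and stem and cycling cell lists are given as means only. Lists of endothelial, smooth muscle, enteric neuron and squamous genes were also made and are not described. The members and lists were chosen with earlier results of these data known. Loci are from GENCODE M21, promoters from RefSeq, both GRCm38.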

Additional observations from a re-analysis of the deposited data

Results flagged for a closer look

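In groups of 5 samples, 4 of 20 groups of values held a sample far from the others. Chance gives about 1 in 20 for independent groups, but these are genes measured in the same libraries. Most of the flags came from the same library, tumour 2, so the count cannot be compared with that rate. Tumour 2 stood above the other tumours for Vil1, at 222.64 FPKM, for Mep1b, at 46.75 FPKM, and for Alpi, at 0.72 FPKM. Adjacent sample 2 stood above the other adjacent samples for Ceacam20, at 147.56 FPKM.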

How the results depend on the processing

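All 10 genes fell under each of the 19 alternatives fitted, with a highest adjusted p of 0.00967, for Lypd8 with quantile normalization; the count stayed at 10 to 10 when each library was left out. The lowest and highest counts over all genes with 1 library left out were 2321 and 2609 lower and 7051 and 7583 higher. With library medians subtracted 4329 genes were lower and 4486 higher, with quantile normalization 3934 and 4759, and with the general epithelial mean subtracted 1164 and 10038. The log2 change of Stx3 was 0.22 and that of Lypd6b 0.27 with the general epithelial mean subtracted, and that of Esrp2 -0.033 with library medians subtracted; the cause was not tested. The ratios rest on few samples: with 1 library left out, Cdhr2 against Cdhr5 was -0.31 to -0.19, Ush1c against Cdhr2 1.28 to 2.00, Mep1a against Mep1b -1.05 to -0.46 and Myo1a against Vil1 -0.87 to -0.75. Leaving out any of adjacent samples 3, 4 and 5 or tumours 3, 4 and 5 took the adjusted p of the 3 called ratios above 0.05, where the smallest unadjusted p that 4 against 5 samples allow is 0.0159. Cdhr2 against Cdhr5 passed with a pseudocount of 0.1 (-0.28, adjusted p = 0.0397) and without adjacent sample 2 (-0.31, adjusted p = 0.0317). Without tumours 2 and 4, chosen after seeing the data, the called ratios were 2.32, -0.42 and -0.93, with adjusted p of 0.0714, 0.0952 and 0.0714, where the smallest unadjusted p is 0.0357. With the replicate block they were 1.58, -0.84 and -0.81, with adjusted p = 0.167, and pairs of 5 cannot go below 0.0625 before adjustment. The numbers are not shown to pair the samples. Deviations of like-numbered samples correlated at 0.022 to 0.42 over genes, and those of unlike-numbered samples at -0.44 to 0.32. Whether these differ was not tested. In limma the block left all 10 genes lower. The Alpi values of tumours rest on 0 to 36 fragments by the rough depth.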

Other observations

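Some brush border hydrolases lay below the expression filter and are given with the fit that had no filter. Mme, neprilysin, which stromal cells and neutrophils also express, was at 0.04 to 0.37 FPKM in adjacent samples and 0.07 to 1.71 FPKM in tumours (log2 change 0.69, SE 0.20, limma adjusted p = 0.0139). Akp3, whose limma log2 change was 0.77 (SE 0.11, adjusted p = 0.000191), had every tumour above every adjacent sample. Of promoters of genes that fell by at least 1 on the log2 scale, 6.19% held CAAAGT in the last 100 bases. The shares were 3.35% for all tested genes and 2.85% for genes that rose by at least 1, with no test. They cover the 698 fallen and 1544 risen genes with a promoter entry. Alpi, Cdhr2, Ceacam20 and Mep1a are among the fallen genes, and the motif was chosen after promoters of the 10 genes had been seen.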
